A study of Homo sapiens with 16 samples.

Results

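The proteasome subunit genes are the protein-coding genes of chromosomes 1 to 22 and X whose symbol begins with PSMA, PSMB, PSMC, PSMD, PSME, PSMF or PSMG followed by a digit. There were 50 such genes among the 19621 genes that could be given a start and a strand. The 50 genes comprised 8 alpha ring genes, 7 constitutive beta ring genes and 4 inducible or tissue-restricted beta genes. For the regulatory particle there were 6 ATPases and 14 genes with PSMD symbols, grouped as non-ATPase genes. Of this group, PSMD5, PSMD9 and PSMD10 encode assembly chaperones rather than subunits. There were also 4 activators, 1 inhibitor and 4 PSMG assembly chaperones. The symbol rule also picked up PSMC3IP and PSME3IP1, which are named for proteins they interact with and are not proteasome subunits, and their values are given as such.

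The proteasome is the protease complex that degrades ubiquitin-tagged proteins, and every dividing cell depends on it. Its barrel-shaped core is made of alpha and beta rings, with 3 of the beta subunits carrying the proteolytic sites, and it is capped by a regulatory particle whose ATPases unfold substrates. In cells exposed to interferon, PSMB8, PSMB9 and PSMB10 are incorporated in place of the catalytic subunits PSMB5, PSMB6 and PSMB7 and form the immunoproteasome, which favours peptides for antigen presentation. Acetylated H3K27 (H3K27ac) is a histone mark of active promoters and enhancers, and at an active gene it lies on the nucleosomes flanking the start site.

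H3K27ac ChIP-seq was performed in K562 cells, an established line derived from a human chronic myelogenous leukemia, with no other treatment in any group. In the fixed-antibody arm, the same amount of antibody was combined with chromatin from 0.31 to 20 µg in 7 doubling steps, measured by DNA content (DNA_chrom), so that the titer ran from 32 down to 0.5. For the normalized arm, antibody was scaled to DNA_chrom at the same 7 amounts, and each reaction had titer 1. Libraries are named by DNA_chrom and titer, such as 0.31-T32 or K562-H3K27ac-1.25-T8, whose prefix is left out for the others. There was 1 library for each condition, apart from 10-T1a of the fixed arm and 10-T1b of the normalized arm, which had the same DNA_chrom and the same titer. Titer fell as DNA_chrom rose in the fixed arm, so the effects of titer and DNA_chrom cannot be told apart there. An input library was made separately for each arm, and differences of arm and of input cannot be told apart. Replicate cultures were not named, and p-values therefore measure only the spread between libraries of 1 cell line.

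Each library was represented by the authors' list of peaks, and peaks with a q-value of at most 1% were counted. 2 quantities were measured for each gene within 5 kb of its start sites. Coverage is the percent of that window covered by peaks. The percentile ranks the strongest peak in the window by fold enrichment among all peaks of the same list, where 100 is the top of the list and 0 means that no peak was present. The lists held 64083 to 82143 peaks covering 32.8 to 75.3 Mb, with 0.31-T32 the smallest by both measures, and they hold no reads, so the depth behind a value cannot be computed from them. All 8 K562 marker genes, among them GATA1 and HBG1, had a peak in all 14 lists, as did 53% of all genes. Of the markers of other lineages reported here, CD3E, MS4A1 and KRT5 had none, while CD3D, LYZ and EPCAM had one in all 14 lists and CD14 in 12. The presence of a peak therefore does not by itself tell the cell type.

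The promoters of the subunits that the comparisons turn on are shown as the bases before the start (RefSeq, GRCh38.p14), written along the gene. They contrast the constitutive PSMB5 with its inducible counterpart PSMB8, with the inducible PSMB9 and PSMB10, and with PSME1 and PSME2, the interferon-induced activator subunits. Capitals mark every match, on either strand, to 1 of 8 short motifs: the antioxidant response element core TGACNNNGC, the interferon-stimulated response element core GAAANNGAA, CCAAT, the ETS motif CCGGAAG, TGACGTCA, the GC box GGGCGG, ATGGCGGC and TATAAA. PSMB5 and PSMB8 each have a further start in the table, for which no sequence is printed.
PSMB5 promoter, chr14:23035221-23035470, minus strand: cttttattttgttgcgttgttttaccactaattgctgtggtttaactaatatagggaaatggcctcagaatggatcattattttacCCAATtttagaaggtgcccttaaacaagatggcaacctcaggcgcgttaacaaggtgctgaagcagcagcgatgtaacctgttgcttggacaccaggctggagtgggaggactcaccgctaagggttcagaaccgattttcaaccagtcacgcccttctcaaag
PSMB8 promoter, chr6:32844048-32844297, minus strand: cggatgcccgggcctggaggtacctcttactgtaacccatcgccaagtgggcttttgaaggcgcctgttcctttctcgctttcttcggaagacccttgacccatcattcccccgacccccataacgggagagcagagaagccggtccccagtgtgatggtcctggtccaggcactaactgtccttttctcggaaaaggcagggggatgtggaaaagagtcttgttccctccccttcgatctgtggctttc
PSMB9 promoter, chr6:32853942-32854191, plus strand: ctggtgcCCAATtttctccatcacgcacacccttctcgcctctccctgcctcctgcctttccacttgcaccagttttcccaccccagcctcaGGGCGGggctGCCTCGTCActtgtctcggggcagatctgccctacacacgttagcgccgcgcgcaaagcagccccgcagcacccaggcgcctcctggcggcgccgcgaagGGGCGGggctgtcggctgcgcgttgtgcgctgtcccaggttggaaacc
PSMB10 promoter, chr16:67936851-67937100, minus strand: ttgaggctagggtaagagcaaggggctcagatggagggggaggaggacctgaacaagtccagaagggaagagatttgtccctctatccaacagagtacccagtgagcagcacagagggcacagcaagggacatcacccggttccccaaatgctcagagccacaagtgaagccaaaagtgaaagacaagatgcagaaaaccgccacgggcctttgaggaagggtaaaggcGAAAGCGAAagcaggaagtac
PSME1 promoter, chr14:24135944-24136193, plus strand: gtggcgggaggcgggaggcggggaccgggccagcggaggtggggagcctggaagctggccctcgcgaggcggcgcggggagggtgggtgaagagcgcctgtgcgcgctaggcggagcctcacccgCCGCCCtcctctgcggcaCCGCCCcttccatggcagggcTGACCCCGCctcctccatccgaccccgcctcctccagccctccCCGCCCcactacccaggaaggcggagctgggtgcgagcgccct
PSME2 promoter, chr14:24146611-24146860, minus strand: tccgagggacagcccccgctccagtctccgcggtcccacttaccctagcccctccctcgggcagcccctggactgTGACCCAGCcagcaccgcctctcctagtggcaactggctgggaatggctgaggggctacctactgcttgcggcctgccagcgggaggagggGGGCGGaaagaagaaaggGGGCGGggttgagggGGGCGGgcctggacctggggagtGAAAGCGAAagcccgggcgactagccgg

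In these stretches PSMB10 and PSME2 held the interferon-stimulated core, starting at -21 and -28 from the start, and PSMB9, PSME1 and PSME2 held the antioxidant response core, at -148, -86 and -175. PSMB8 had no match to any of the 8 motifs in the stretch shown, and PSMB5 had a single CCAAT at -164. Over the full 300-base entries, which reach 50 bases past the start, 55 promoters of 44 member genes could be searched. The antioxidant response core, which is bound by NFE2L1 and NFE2L2, occurred in 15 of the 55, or 27.3%, against 13.8% of all 22132 promoters. The ETS motif occurred in 18, or 32.7%, against 12.8%. The interferon-stimulated core occurred in 8, or 14.5%, against 7.09%, and CCAAT in 24, or 43.6%, against 34.6%. The GC box was found in 70.9% against 56.3% and TATAAA in 9.09% against 9.46%, whereas ATGGCGGC was found in 1 and TGACGTCA in none, against 3.91% and 2.26% of all promoters. The GC content was similar, with a median of 62.0% in the member promoters and 62.3% in all. The GAAANNGAA matches of PSMB8 and PSME1 reach past a start and so are not in the printed stretches. These matches describe the letters only.

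Nearly all proteasome genes carried an H3K27ac peak under every condition. A peak within 5 kb was present in all 14 lists for 46 of the 50 genes, compared with 53% of all 19621 genes. Within 1 kb it was present in all 14 lists for 45 of the 50, compared with 49.5% of all genes. The exceptions at 5 kb were PSMB8 and PSMA8, with no peak in any list, PSMB9, with a peak in 8, and PSMB11, with a peak in 7. All 4 encode inducible or tissue-restricted subunits: PSMA8 belongs to the proteasome of the testis and PSMB11 to that of the thymus. Of all genes, 33.8% had no peak in any list and 13.2% had one in some lists but not in others.

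**Figure D1:**
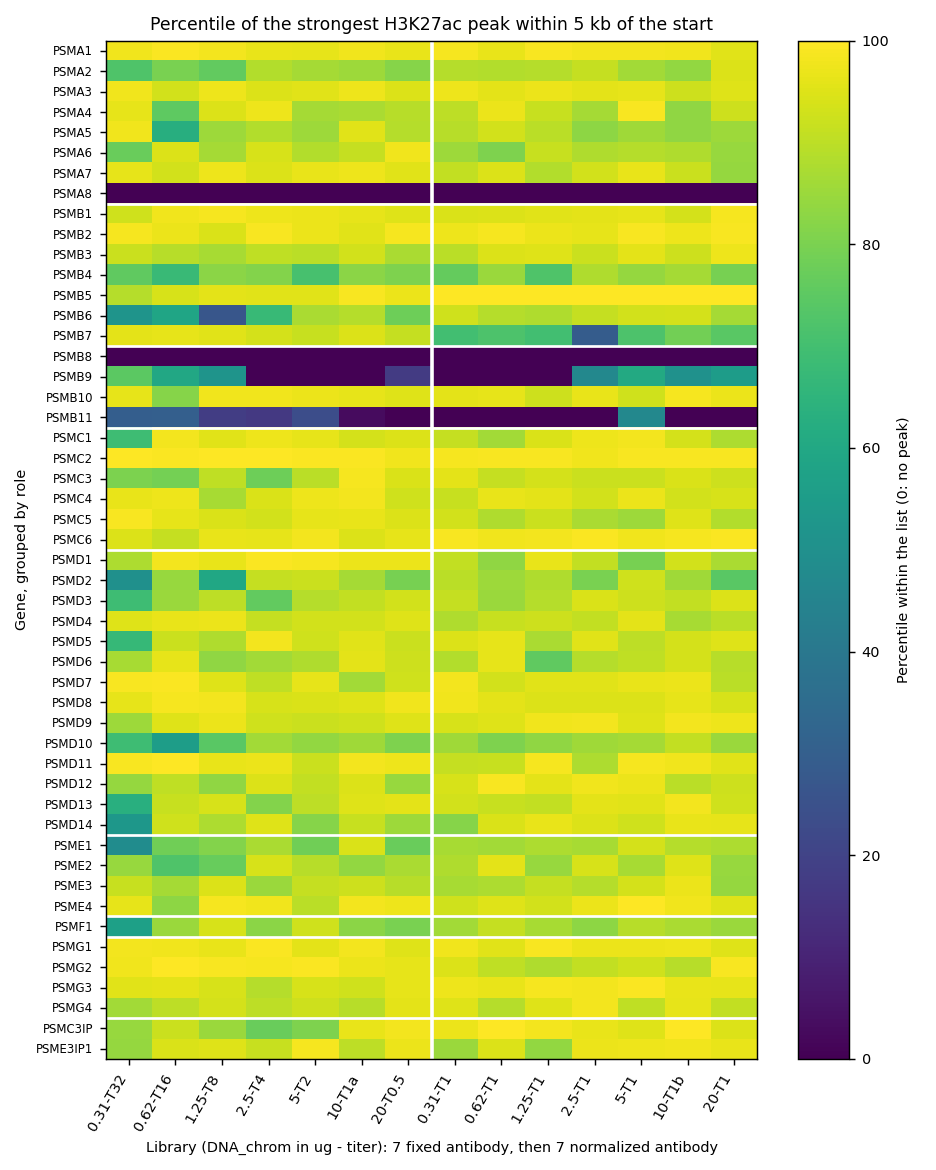
Percentile of the strongest H3K27ac peak within 5 kb of the start for the 50 genes (rows, grouped by role, white lines between roles) in the 14 libraries (columns, 7 fixed-antibody libraries left of the white line and 7 normalized ones right of it). Dark rows are the genes with no peak in some or all lists, PSMA8, PSMB8, PSMB9 and PSMB11, and PSMB5 is at 99.8 or above in the 7 normalized lists.

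Among the 46 genes with a peak in every list, the median over genes of the median percentile was 93.6, with quartiles of 89.3 and 96.1. The same values for all 10396 genes with a peak in every list were 91.5, 85.6 and 95.6. The strongest peaks of these 46 genes had a median width of 1521 bp, against 1461 bp for all such genes. The summit lay downstream of the nearest start for 29 of the 46, or 63.0%, against 62.5% of all such genes, and its median position was 174 bp downstream. A start of another gene lay on the opposite strand within 1 kb of 11 of the 50 genes, or 22%, against 13.4% of all genes. Examples are PSMD13 and SIRT3, whose starts are 45 bp apart, PSMC5 and FTSJ3 at 58 bp, and PSME4 and ACYP2 at 120 bp, and for such pairs a peak cannot be assigned to 1 gene.

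The alpha ring genes, which form the outer gates of the core, had median percentiles of up to 97.9. PSMA1 (chr11:14504876-14643662) was the highest of them, at 96.4 to 99.4 in the fixed arm and 95.6 to 98.9 in the normalized arm. PSMA8 was at 0 in all 14 lists, and the nearest peak of any deposited list was 42200 to 42664 bp from its start. The 7 other alpha genes had a peak in every list.

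The constitutive beta ring held both the highest and some of the lowest members. PSMB5 (chr14:23025851-23035220, minus strand), the chymotrypsin-like subunit that is the target of bortezomib, had the highest median percentile of all 50 genes, 99.4. It lay at 88.9 to 99.0 with a median of 95.6 in the fixed arm, and at 99.8 to 100 in the normalized arm, and the arms did not overlap. In the normalized lists only 2 (10-T1b) to 136 (20-T1) peaks of the whole list had a higher fold enrichment than the PSMB5 peak, whereas 827 (10-T1a) to 7130 (0.31-T32) did in the fixed lists. The authors' fold enrichment at PSMB5 was 7.06 to 19.7 in the fixed arm and 22.7 to 30.5 in the normalized arm. This gap was also present at equal DNA_chrom and titer, with 19.7 in 10-T1a and 30.5 in 10-T1b.

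PSMB7 (chr9:124353465-124415442, minus strand), the trypsin-like subunit, moved the other way. Its percentile was 91.2 to 96.4 with a median of 94.6 in the fixed arm and 29.2 to 78.5 with a median of 72 in the normalized arm, again without overlap. Its fold enrichment was 8.57 to 14.5 in the fixed arm and 3.98 to 8.14 in the normalized arm. As at PSMB5, the 10 µg libraries of titer 1 differed, with 14.5 in 10-T1a and 8.14 in 10-T1b. PSMB5 and PSMB7 were the only members whose percentiles did not overlap between arms. Of all 12994 genes with a peak in at least 1 list, 3.42% had all 7 normalized lists above all 7 fixed ones and 2.58% had the reverse, so that 1 gene of each kind among 48 members is near the background. For coverage no member was without overlap, against 4.83% and 0.0847% of all genes.

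PSMB6 (chr17:4796164-4798495), the caspase-like subunit, ranged most widely among the constitutive beta genes within the fixed arm, from 26.6 (K562-H3K27ac-1.25-T8) through a median of 67.2 to 89.0 (10-T1a). In the normalized arm it was at 86.5 to 93.6 with a median of 91.3. The 4 fixed lists of titer 4 or above held its 4 lowest values, and the arms overlapped through 5-T2 and 10-T1a. PSMB4, a structural beta subunit, had the lowest median percentile of the genes with a peak in every list, 81.1. PSMB2 stayed between 94.4 and 99.2 over all 14 lists.

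The 3 inducible subunits had a peak in all lists (PSMB10), in 8 (PSMB9) or in none (PSMB8). PSMB10 (chr16:67934506-67936850, minus strand) lay within the range of the constitutive subunits, at 81.9 to 98.0 with a median of 96.4 in the fixed arm and 92.4 to 98.7 with a median of 96.3 in the normalized arm. Peaks covered 30.4% to 49.4% of its window. PSMB9 (chr6:32854192-32859851) had no peak in 2.5-T4, 5-T2, 10-T1a, 0.31-T1, 0.62-T1 and K562-H3K27ac-1.25-T1. Its percentile in the other fixed libraries was 74.7 in 0.31-T32, 59.9 in 0.62-T16, 51.8 in K562-H3K27ac-1.25-T8 and 17.2 in 20-T0.5. In the other normalized libraries it was 46.9 in 2.5-T1, 60.7 in 5-T1, 50.5 in 10-T1b and 55.3 in 20-T1. The 3 lists of highest titer and the 4 normalized lists of most DNA_chrom thus held its higher values, and 10-T1a and 10-T1b fell on different sides. The PSMB9 peak, where present, was 343 to 659 bp wide with its summit at -791 to -258 bp from the start. That stretch belongs equally to TAP1, the peptide transporter gene that starts 488 bp away on the opposite strand and had the same percentiles.

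PSMB8 (minus strand, start at position 32844047 of chromosome 6, with a further start at 32844679) had no peak in its window in any list, also when the full deposited lists, down to a q-value of 5%, were used. A peak lay just outside the window in all 14 lists, 5268 to 5321 bp downstream of the nearer start. In 13 of the 14 lists this peak covered the start of TAP2, the partner of TAP1, and in K562-H3K27ac-1.25-T8 it ended just short of it. Its percentile was 41.8 (20-T0.5) to 87.7 (2.5-T4).

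**Figure D2:**
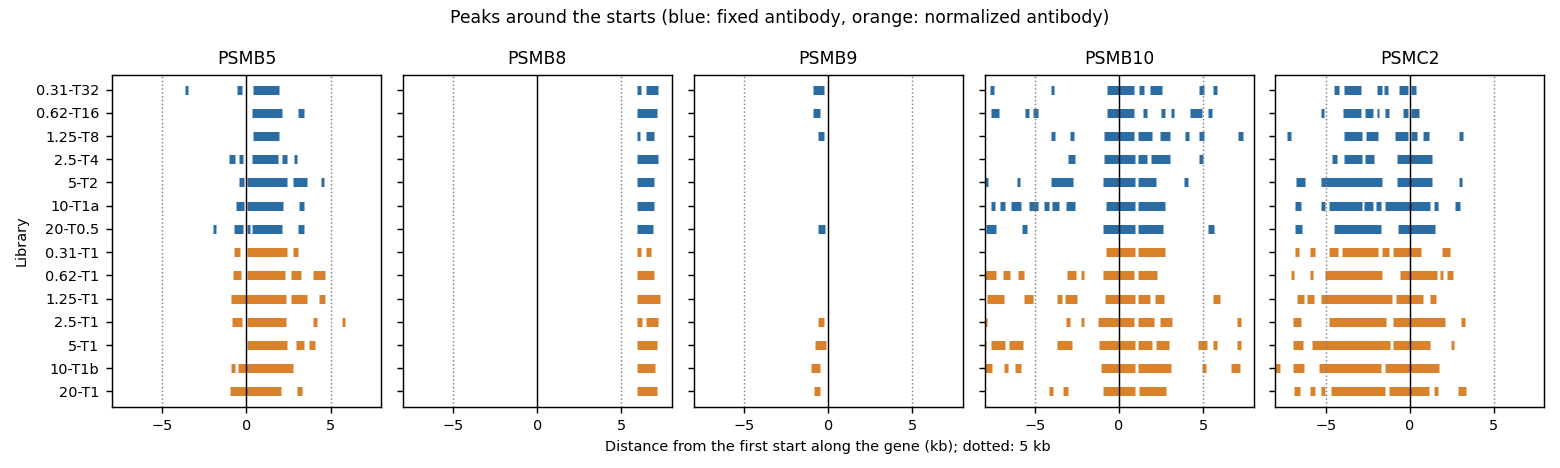
Peaks with a q-value of at most 1% around the first start of PSMB5, PSMB8, PSMB9, PSMB10 and PSMC2, in kb along each gene (x axis) in the 14 libraries (y axis, blue for fixed antibody and orange for normalized antibody), with the 5 kb limits dotted. PSMB8 has peaks only beyond 5 kb downstream, PSMB9 has short peaks upstream in 8 lists, and at PSMC2 the strongest peak lies about 3 kb upstream.

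Each inducible subunit was set against the constitutive subunit it replaces, as the difference in percentile within each library (exact two-sided sign-flip permutation test over 14 libraries, Benjamini-Hochberg over the 3 comparisons, smallest possible p 0.000122). PSMB5 exceeded PSMB8 by 97.5 ± 3.28 points (SD), which is a description with no test, since PSMB8 had no peak in its window in any list and PSMB5 had one in all. PSMB6 exceeded PSMB9 in 11 of 14, by 48.3 ± 41.5 points (exact test, p = 0.00195 unadjusted and 0.00293 adjusted). The adjustment counted PSMB5 minus PSMB8, whose outcome was fixed, as 1 of the 3 comparisons. Its small p lowers the adjusted p of PSMB6 minus PSMB9, here and in the fixed arm alone. In the 6 lists without a PSMB9 peak the direction was fixed in the same way. Over the 8 lists with both peaks the difference in log2(fold enrichment) was 0.73 ± 0.77 (exact test, p = 0.0625 unadjusted and 0.0938 adjusted). PSMB5 minus PSMB8 had no values there but was still counted in the adjustment, which raised the adjusted p. PSMB7 was below PSMB10 in 13 of 14, by a mean difference of -14.8 ± 19.4 points (adjusted p = 0.0072). In log2(fold enrichment) PSMB7 minus PSMB10 was -0.67 ± 0.67 (adjusted p = 0.011, exact test). Neither of the tested differences was called in the fixed arm alone. The PSMB6 difference was 36.4 ± 51.0 points in the fixed arm (adjusted p = 0.188, exact test, n = 7) and 60.2 ± 28.3 in the normalized arm (adjusted p = 0.0156, the smallest that an exact test of 7 libraries can give). The PSMB7 difference was -0.458 ± 6.78 points in the fixed arm (adjusted p = 0.922, exact test) and -29.2 ± 17.1 in the normalized arm (adjusted p = 0.0156, exact test). Whether the arms differ in these contrasts was not tested. In coverage, PSMB10 exceeded PSMB7 in 14 of 14 libraries, and the mean of PSMB7 minus PSMB10 was -25.8 ± 5.92 points of percent coverage.

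**Figure D3:**
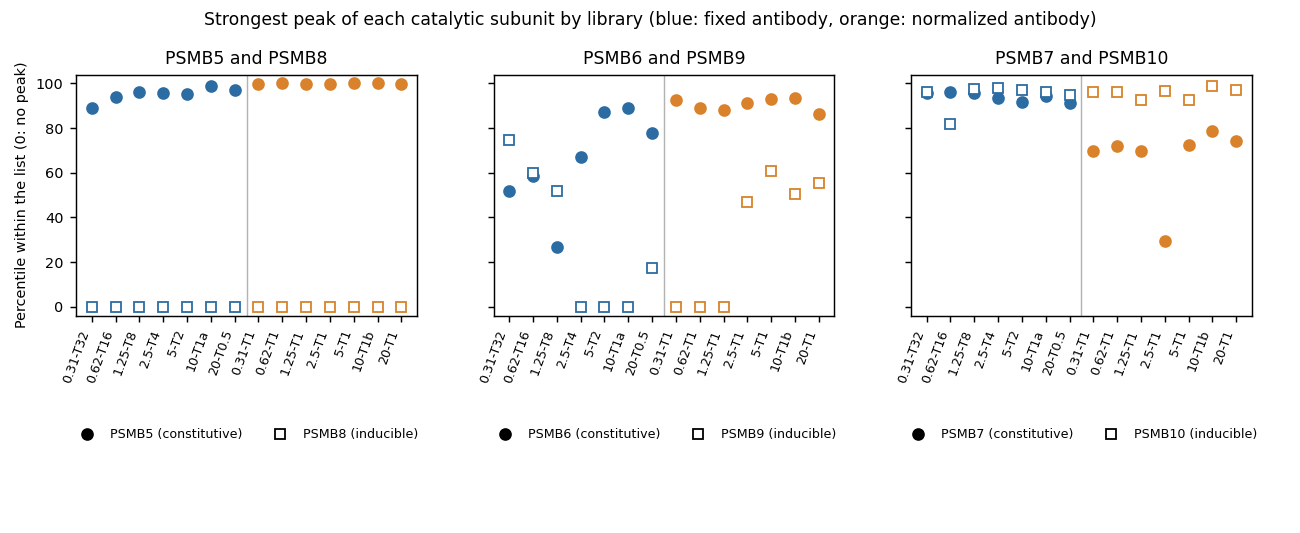
Percentile within the list (y axis) of the 3 constitutive catalytic subunits (filled circles) and the inducible subunits that replace them (open squares) in each library (x axis, blue for fixed antibody and orange for normalized antibody). PSMB8 is at 0 in every library, PSMB9 lies between 0 and 74.7, and PSMB10 lies above PSMB7 in 13 of 14 libraries.

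PSMB11 was called only in part of the lists and only at low rank. It had a peak in 6 of 7 fixed lists, with percentiles of 2.90 (10-T1a) to 30.2 (0.62-T16), and in 1 normalized list, 5-T1, at 46.8. Its peaks were 159 to 319 bp wide and lay 2503 to 3837 bp downstream of the start, except in 0.31-T32, where the summit was at -3384 bp from the start. That 0.31-T32 peak also lay in the window of PSMB5, at -3668 to -3471 bp from the first PSMB5 start, and was counted for both genes. No peak was within 1 kb of the PSMB11 start in any list.

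The 6 ATPase genes of the regulatory particle were all high, with median percentiles of 92.0 to 99.2. PSMC2 (chr7:103347524-103369395) reached 97.7 to 99.9 in the fixed arm and 98.0 to 99.2 in the normalized arm. Its strongest peak had its summit at -3155 to -2968 bp from the start in all lists, near the start of DNAJC2, 2876 bp away on the opposite strand. Within 1 kb of the PSMC2 start itself the median percentile was 90.2, so its high rank belongs to the neighbouring peak. PSMC6, at 97.9 over all lists, kept the same strongest peak at 1 kb in all 14. The 14 non-ATPase genes had median percentiles of 84.4 (PSMD10, also known as gankyrin) to 97.1 (PSMD11).

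Of the activators, PSME1 and PSME2 had median percentiles of 87.1 and 87.2, PSME3 90.2 and PSME4 96.7. PSME1 (chr14:24136194-24138962) was at 48.8 (0.31-T32) to 94.2 (10-T1a) with a median of 78.4 in the fixed arm and at 86.1 to 93.4 with a median of 87.5 in the normalized arm. In 7 of the 14 lists its strongest peak was not within 1 kb of the start, and in 1 list no peak was. PSME2 (chr14:24143365-24146610, minus strand) was at 72.3 to 94.1 in the fixed arm and 84.4 to 96.1 in the normalized arm. PSMF1, which encodes an inhibitor of the core, had a median of 85.7. The 4 PSMG assembly chaperones, which guide ring formation, had medians of 91.7 (PSMG4) to 97.4 (PSMG1). PSMC3IP, a recombination factor, and PSME3IP1 had medians of 95.8 and 94.8.

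Coverage fell with titer in the fixed arm. The median coverage of the 46 genes was 15.4% in 0.31-T32 and 18.1% in 0.62-T16. It was 22.5% and 24.8% in the libraries of titer 8 and 4. From titer 2 downwards it was 31.4% (5-T2), 29.6% (10-T1a) and 30.6% (20-T0.5). The 5 libraries of titer 2 or above were thus ordered by titer, and the 3 of titer 2 or below were close to one another. PSMB1, a structural beta subunit, rose from 11.8% in 0.31-T32 to 44.3% in 20-T0.5, a slope of -5.62 ± 0.549 points per doubling of titer (SE, limma adjusted p = 0.00313). The other large slopes were those of PSMC3IP, -6.41 ± 1.29 (adjusted p = 0.00906), PSMA7, -5.47 ± 1.23 (0.0123), PSMC2, -5.47 ± 1.16 (0.0105), and PSMD5, a chaperone of the ATPase ring, -4.53 ± 0.854 (0.00764). PSMD6 and PSMB11 had the smallest, -0.385 ± 0.463 and 0.247 ± 0.122 (adjusted p = 0.495 and 0.122).

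The fit ran over the 12994 genes with a peak in at least 1 list, 48 of which were members. Coverage fell with titer in 35 members and rose in none, where 55.3% of all genes fell and 0.508% rose. The median slope was -2.25 points over the members and -1.76 over all genes. Among the 10396 genes with a peak in every list, the median was -2.30 over the 46 members and -2.16 over all. In that fit 38 of the 46 members and 7519 of the 10396 genes fell. By role, 6 of 7 tested alpha genes, 5 of 7 constitutive beta genes, 6 of 6 ATPases and 10 of 14 non-ATPase genes fell. So did 2 of 4 activators, the inhibitor, 3 of 4 PSMG chaperones, PSMC3IP and PSME3IP1. None of the 3 tested inducible or tissue-restricted beta genes passed, with slopes of -1.57 ± 1.08 for PSMB10, 0.692 ± 0.412 for PSMB9 and 0.247 ± 0.122 for PSMB11. The covered length of the whole lists moved with titer too, from 32.8 Mb in 0.31-T32 to 65.3 Mb in 10-T1a. When coverage was scaled to the covered length of each list, 0 members fell and 2 rose, against 1.26% and 4.09% of all genes. Without 0.31-T32, 15 members and 29.2% of all genes fell, and without 0.62-T16, 23 members and 44.3% of all genes.

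In the normalized arm, where titer was constant, no coverage slope over DNA_chrom was called by limma in any of the 12994 genes (0%). The unadjusted p was under 0.05 for 18 members and 2628 genes in all. The median slope was 1.34 points per doubling of DNA_chrom in the members and 0.739 in all genes. Slopes were positive in 44 of 48 members. The share over all genes was not counted, so this count is not read as a trait of the members. With coverage scaled to the covered length of each list, 27 members had a positive and 21 a negative slope. The scaled medians were 0.147 in the members and -0.0209 in all genes. Without 0.31-T1 the medians of unscaled coverage were 0.979 and 0.417, and 37 members had a positive slope, again with no share over all genes. The unadjusted limma p was then under 0.05 for 6 members and 1324 genes. In the paper 0.31-T1 had the lowest share of uniquely mapped pairs and the lowest complexity. Whether this bears on the slopes was not tested. The median coverage of the 46 genes was 28.6% in 0.31-T1 and 28.6% to 36.7% over the arm. PSMA3, an alpha subunit, was at 36.0% in 0.31-T1 and 64.5% in 20-T1 and had the largest slope, 3.61 ± 0.982 (adjusted p = 0.169). PSMG4, PSMA7, PSMD10 and PSMD6 followed with 2.44 ± 0.852, 2.36 ± 2.17, 2.32 ± 0.941 and 2.31 ± 0.686 (adjusted p from 0.179 to 0.536 by limma), while PSMB11 and PSMB7 had 0.208 ± 0.394 and 0.111 ± 0.812.

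**Figure D4:**
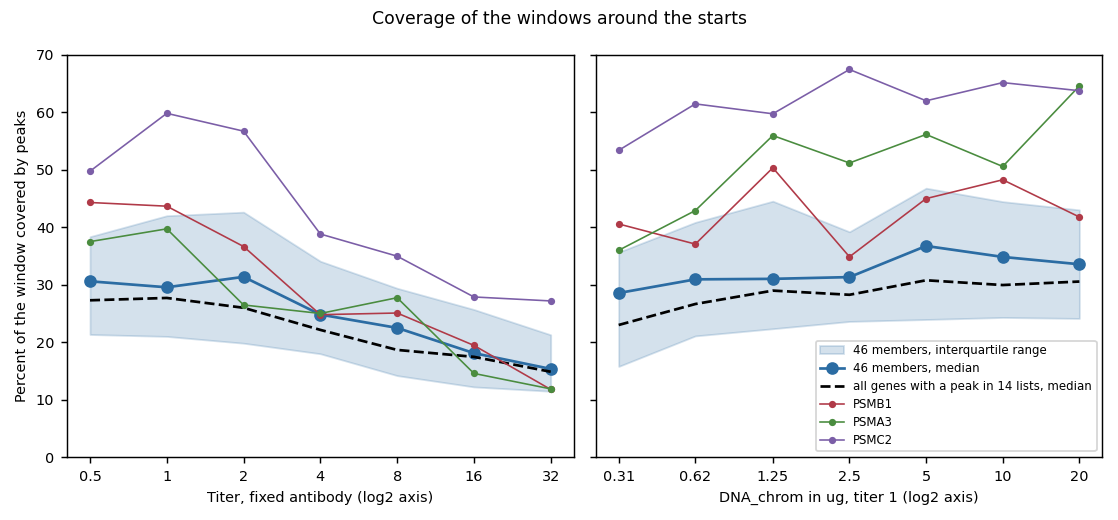
Percent of the window covered by peaks (y axis) against titer in the fixed arm and against DNA_chrom in the normalized arm (x axes, log2). The blue line and band are the median and interquartile range of the 46 members with a peak in every list, the dashed line is the median of all such genes, and PSMB1, PSMA3 and PSMC2 are drawn singly. The member median rises from 15.4% at titer 32 to 30.6% at titer 0.5 and stays between 28.6% and 36.7% at titer 1.

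At matched DNA_chrom, without the 10 µg pair in which both arms had titer 1, coverage was higher in the normalized arm for 23 of the 48 members and lower for none by limma, where 44.7% of all genes were higher and 1.09% lower. The median difference was 5.67 points over the members and 4.87 over all genes. Among the genes with a peak in every list it was 6.34 over the 46 members and 6.30 over all. PSMA3 covered 11.9% to 39.7% in the fixed arm and 36.0% to 64.5% in the normalized arm, and the difference over the 6 pairs was 27.2 ± 1.92 points (SE, adjusted p = 0.00565). PSMC2 (22.1 ± 4.06), PSMA6 (19.8 ± 2.63), PSMD5 (19.2 ± 3.49) and PSMD10 (17.4 ± 2.90) came next, each with an adjusted p under 0.05. PSMB4 and PSMG1 had the smallest differences, 0.217 ± 1.82 and 0.05 ± 1.51 points. Both interferon-induced activators were higher, PSME1 by 12.2 ± 2.77 (adjusted p = 0.0144) and PSME2 by 12.4 ± 2.33 (adjusted p = 0.01). Of the catalytic subunits tested none passed, with 10.2 ± 4.29 for PSMB5, 3.8 ± 1.59 for PSMB6, -1.96 ± 1.24 for PSMB7, 3.12 ± 1.15 for PSMB10 and -0.895 ± 1.82 for PSMB9 (adjusted p from 0.0605 to 0.706 by limma). This comparison and the titer slopes share the fixed libraries. Scaled to the covered length of each list, 3 members were higher and 4 lower, against 3% and 8.9% of all genes. The 10 µg pair without a titer difference gave the normalized library the higher coverage in 36 of the 46 genes, by a median of 4.47 points (10-T1a minus 10-T1b, -4.47). The median coverage of all genes with a peak in every list was 27.7% in 10-T1a and 29.9% in 10-T1b. The whole lists covered 65.3 Mb and 72.2 Mb.

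**Figure D5:**
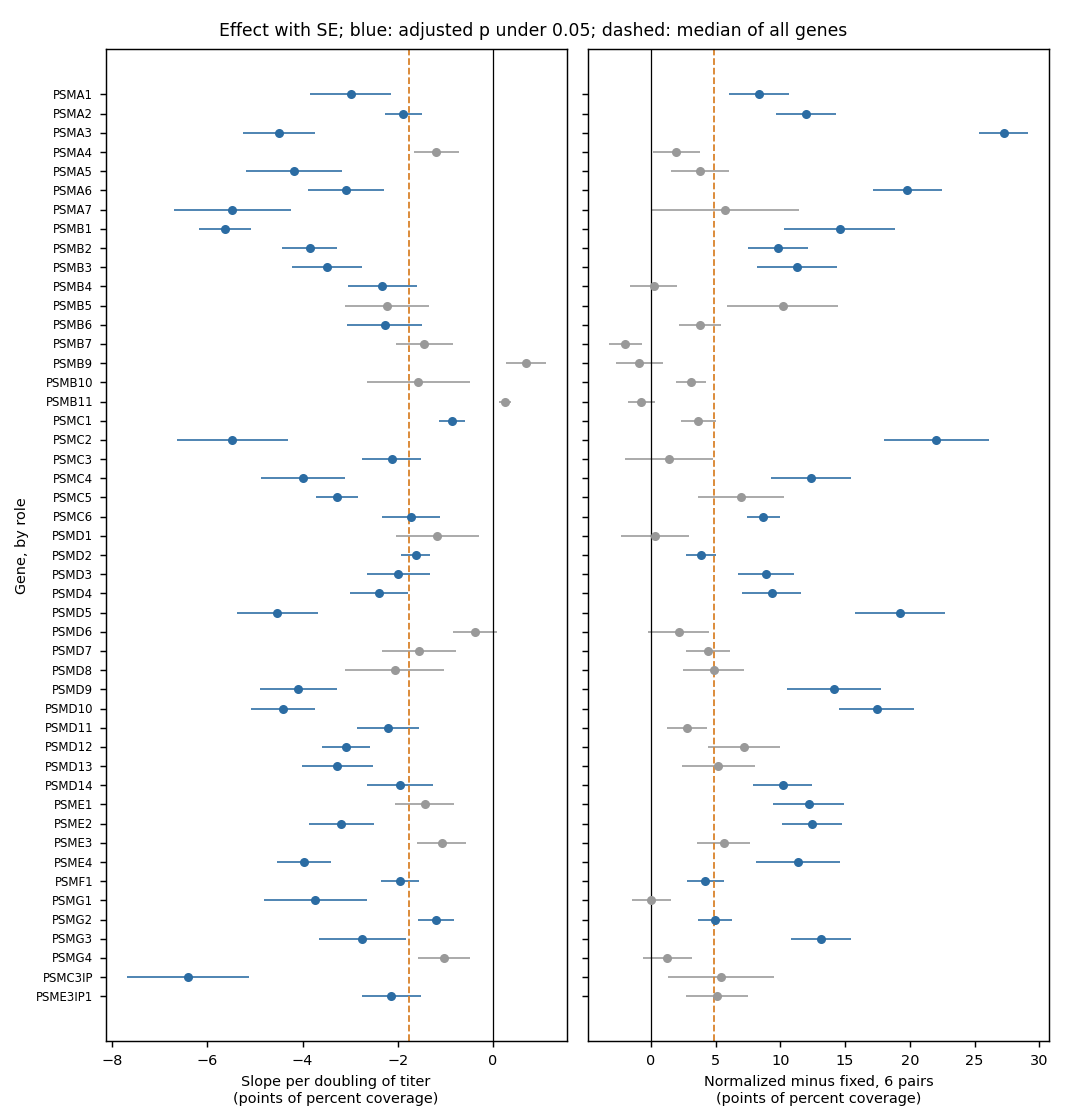
Slope of coverage per doubling of titer in the fixed arm (left) and normalized minus fixed coverage over 6 pairs of equal DNA_chrom (right), in points of percent coverage with SE, for the 48 members tested. Blue points have an adjusted p under 0.05, grey points do not, and the dashed line is the median of all genes, -1.76 and 4.87.

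No slope of the percentile over titer or over DNA_chrom was called in any gene by limma (0% each), with an unadjusted p under 0.05 for 6 and 1 of the 48 members and 1657 and 912 of 12994 genes. Over titer the largest member slopes were those of PSMB9 (12.3 ± 3.44 points per doubling), PSMB6 (-7.12 ± 3.23), PSMB11 (4.96 ± 1.07), PSMD2 (-4.44 ± 2.55) and PSME1 (-4.04 ± 2.20), with adjusted p from 0.327 to 0.472. PSMC4 and PSMB2 had the smallest, -0.0276 ± 0.751 and 0.000721 ± 0.339. Over DNA_chrom PSMB9 again had the largest, 11.7 ± 2.64, followed by PSME3IP1 (1.98 ± 0.840), PSMB11 (1.67 ± 3.23), PSMD14 (1.59 ± 0.742) and PSMD2 (-1.43 ± 1.03), with adjusted p from 0.650 to 0.921, and PSMC2 and PSMB5 the smallest, 0.0386 ± 0.103 and -0.00437 ± 0.0619.

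Between arms at matched DNA_chrom no member was called in percentile by limma, where 0.239% of all genes were lower and 0% higher, and the unadjusted p was under 0.05 for 14 members and 3334 genes. PSMB7 had the largest difference, -29.5 ± 7.28 points (adjusted p = 0.085), and PSMB6 the next, 28.5 ± 8.06 (adjusted p = 0.103). PSME1 (12.9 ± 5.07), PSMB11 (-12.0 ± 7.37) and PSMC3IP (10.6 ± 3.23) followed, with adjusted p from 0.119 to 0.337, and PSMA1 and PSMG1 had the smallest, 0.185 ± 1.17 and -0.141 ± 1.13. PSMB5, already near the top of the lists, differed by 5.42 ± 1.59 (adjusted p = 0.111). In log2(fold enrichment), tested in the 10396 genes with a peak in every list, 45 of 46 members fell with titer, where 85.4% of all genes fell and 0.0289% rose, and 26 were higher and 1 lower in the normalized arm, where 46% and 1.45% of all genes were.

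All 12 partner genes outside the PSM symbols, such as the ubiquitin receptor ADRM1 and the deubiquitinase USP14, had a peak in all 14 lists. The share of all genes was 53%. Coverage fell with titer in 12 of them, where 55.3% of all genes fell, and was higher in the normalized arm in 7, where 44.7% of all genes were, with UBE3C at -5.19 ± 1.08 points per doubling and PITHD1 at 23.2 ± 3.56 points between arms. The NFE2L1 pathway restores proteasome gene expression when proteasome activity drops. That role is not claimed here for NFE2L2 and KEAP1, which were listed with it. All 11 listed genes also had a peak in all 14 lists. Of these 7 fell with titer (NFE2L1 itself by -4.33 ± 0.796) and 5 were higher in the normalized arm (KEAP1 by 23.9 ± 4.34), both near the shares of all genes, 55.3% and 44.7%. Of 11 genes of antigen processing, 7 had a peak in all 14 lists, to be read against the same 53% of all genes. TAP1 and TAPBPL had one in 8 lists each, and NLRC5 and IRF8 in none. Of all genes, 13.2% had one in only some lists and 33.8% in none. Of the 9 tested, 3 fell with titer and 4 were higher in the normalized arm, with TAPBP, the tapasin gene, at -4.76 ± 0.930 points per doubling and 15.4 ± 3.72 points between arms, and these counts too are to be read against 55.3% and 44.7% of all genes.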

How the data were processed

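H3K27ac ChIP-seq peak lists of 14 K562 libraries were analysed. The submitters' processing notes name CASAVA 1.4, BWA 0.5.9 and hg38. The authors called peaks separately in each library with MACS2 against the input of the arm and deposited each peak's position, its fold enrichment, its p-value and q-value (both as -log10) and its summit, together with a score column that was not used. The deposited lists reach a q-value of 5%, so only those whose -log10 q was 2 or more were kept. The paper names hg19, but the positions were read as GRCh38 and none were converted. The lists hold no reads, and the depth of the libraries was not used here, and the 2 input libraries had no list analysed here.

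Genes and starts came from RefSeq (GRCh38.p14). For 15812 genes all starts in the promoter table were used, and for 3809 genes, 6 of them members (PSMA7, PSMB1, PSMB6, PSMB7, PSMD4, PSMG3), the 5′ end of the gene was used with the strand of GENCODE v44, matched by symbol. Of 19974 genes, 98.2% had a strand. Windows reached 5 kb to each side of each start. Slopes and paired differences were fitted with limma (trend) across all genes with a peak in at least 1 list, with Benjamini-Hochberg adjustment over all of them, and called at an adjusted p under 0.05. Genes of the same shared window are not independent. Members, lists, motifs and contrasts were chosen with earlier results of these data known, and are no independent evidence. Named genes were the catalytic, inducible and tissue-restricted subunits, PSME1, PSME2, PSMC3IP, PSME3IP1, members without a peak in some list, the 5 largest and 2 smallest effects of each fit, and the 3 highest and lowest median percentiles. Examples beyond this rule (PSMB2, PSMC6, PSMF1, PSMD11, divergent pairs and extremes within a role) were chosen after their values were seen. Coverage and strongest peaks were tested on simulated data against counting base by base, with 0 disagreements in 200 windows, and the fits and the permutation test were tested on simulated data. Alternatives were the full lists, a stricter q-value, windows of 1 kb, other gene filters, per-gene exact tests, scaled coverage, log2(fold enrichment), all 7 pairs, and leaving out each library or pair, and, chosen after the data were seen, the 5′ end as the only start. A marker gene of another lineage is not reported here.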

Additional observations from a re-analysis of the deposited data

Results flagged for a closer look

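Values of 12 named genes were compared within each arm of 7 lists, and a value is given here when its gap to the nearest of the other 6 exceeded 0.568 of the arm's range (Dixon's criterion). Of the 40 sets of 7 values examined, 10 held such a value. The criterion flags about 1 in 20 by chance only for independent, normally distributed values. Here percentiles are bounded and include values of 0, and the fixed arm is a titer series. No excess over chance is therefore read from the count. At PSMB7 the percentile of 29.2 in 2.5-T1 lay below the 69.5 to 78.5 of the other normalized lists, and its coverage of 21.2% in K562-H3K27ac-1.25-T1 lay above 8.47% to 13.6%. The PSMB10 percentile was 81.9 in 0.62-T16, against 95.0 to 98.0 in the other fixed lists.

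PSMB11 had a peak in 1 normalized list, 5-T1, with a percentile of 46.8 and a coverage of 5.83%, and its coverage was 0 in 20-T0.5, against 1.59% to 2.47% in the other fixed lists. At PSME1 the percentile was 48.8 in 0.31-T32, against 77.1 to 94.2 in the other fixed lists, and 93.4 in 5-T1, against 86.1 to 88.9 in the other normalized lists. The PSME1 coverage was 19.6% in 10-T1a, against 5.87% to 10.3%. PSMC3IP had a coverage of 15.1% in 0.31-T1, against 27.5% to 36.9% in the other normalized lists. The cause of these values was not tested.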

How the results depend on the processing

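The number of members whose coverage fell with titer, 35, became 0 with coverage scaled to list length, where 2 rose. Of all 12994 genes, 7186 fell in the main fit, and with scaled coverage 164 fell and 532 rose. The number of members was 24 with windows of 1 kb, 24 with the exact permutation test of each gene and 26 with no gene filter. Of all genes, 4746 of 12264, 5342 of 12994 and 5714 of 19621 fell in these settings, in the same order. With 1 library left out, 15 to 32 members fell (15 without 0.31-T32, 23 without 0.62-T16), and 3799 to 6760 of all 12994 genes. The 23 members higher in the normalized arm became 2 with windows of 1 kb and 7 called with scaled coverage (3 higher and 4 lower). The exact sign-flip test of each gene gave 0, as its smallest p does not pass adjustment over all genes. Without 1 pair the number was 14 to 25 (15 without the 0.31 µg pair, 14 without the 0.62 µg pair or that of K562-H3K27ac-1.25-T8). Of all 12994 genes, 5809 were higher in the main fit, and 971 of 12264 with windows of 1 kb. With scaled coverage 390 of all genes were higher and 1156 lower, and without 1 pair 3277 to 5851 were higher. The percentile calls were 45 over titer and 27 between arms with log2(fold enrichment), and 1 between arms with windows of 1 kb or all 7 pairs. In log2(fold enrichment) 8874 of 10396 genes fell and 3 rose over titer, and 4777 were higher and 151 lower between arms. With windows of 1 kb, 87 of 12264 genes were lower and 16 higher between arms. All 7 pairs gave 445 of 12994 genes lower and 349 higher. PSMB6 minus PSMB9 was 36.4 points in the fixed arm alone and 0.73 in log2(fold enrichment) (adjusted p = 0.0938, exact test, 8 libraries). PSMB7 minus PSMB10 was -0.458 in the fixed arm alone, where it was negative in 6 of 7 libraries. No paired analysis was possible because replicate numbers only name libraries, apart from the pairs of equal DNA_chrom used above.

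Some single genes changed sign, among them PSMA3, which had the largest slope over DNA_chrom. With windows of 1 kb the slopes over DNA_chrom were -0.221 (PSMA3) and -0.037 (PSMB7) in coverage and -0.795 in the percentile of PSMC2. With scaled coverage the slopes were 1.43 (PSMD6, titer) and -0.278 (PSMB7, DNA_chrom), and the arm differences -5.59 (PSMB4) and -12.3 (PSMG1). All 7 pairs gave -1.17 (PSMB4) and -2.77 (PSMG1). At a -log10 q of at least 5, PSMG1 differed by -0.765 in coverage and 0.313 in percentile, and the PSMB2 percentile slope over titer was -0.312. In log2(fold enrichment) PSMB2 gave -0.18 over titer, PSMB5 0.0186 over DNA_chrom and PSMG1 0.41 between arms. Leaving out 1 library or pair gave coverage values of 0 to 0.499 (PSMB11, DNA_chrom), -0.357 to 0.499 (PSMB7, DNA_chrom), -1.50 to 1.56 (PSMB4, arms) and -0.696 to 1.32 (PSMG1, arms). It gave percentile values of -0.451 to 0.314 (PSMC4, titer), -0.263 to 0.283 (PSMB2, titer), 0 to 4.01 (PSMB11, DNA_chrom), -0.0211 to 0.0167 (PSMB5, DNA_chrom), -0.189 to 0.787 (PSMA1, arms) and -0.589 to 0.254 (PSMG1, arms). The causes were not tested.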

Other observations

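The libraries 10-T1a and 10-T1b had equal DNA_chrom and titer and differed in arm and input. Over the 46 genes with a peak in every list, the absolute difference between them had a median of 3.84 percentile points, with the largest at PSMB7 (16.1), and a median of 6.21 points of percent coverage, with the largest at PSMG1 (19.7). The percentile was higher in 10-T1b in 21 of the 46 genes. Over all genes with a peak in every list the median percentile was 91.9 in 10-T1a and 91.4 in 10-T1b. The differences between these libraries were not counted over all genes.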
